A study of Mus musculus with 2 samples.

Results

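The fatty acid binding protein (Fabp) genes Fabp3, Fabp4, Fabp5, Fabp7, Fabp9 and Fabp12 were followed through the gene and transcript tables of mouse testis. They were picked by name, with earlier results of these data known. All 6 were found among the 43346 genes of the tables, with 14 transcripts between them. The study sequenced polyA mRNA from the testis of 1 adult male mouse of the inbred strain C57BL/6J, aged 10 weeks. A kit made for lipid-rich tissue was used to extract the RNA. The animal, which is 1 biological replicate, gave 2 libraries, technical replicate 2, made later, and technical replicate 1. There was 1 group and no second condition, so a difference between the libraries is a difference between preparations of 1 animal's tissue. An SD here is the spread of those 2 libraries, not of animals.

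Fabps are small cytoplasmic proteins that fold into a barrel and hold a long chain fatty acid in its cavity, which lets a water-insoluble lipid move through the cell. Mammalian tissues use different members: heart and skeletal muscle Fabp3, adipocytes and capillary endothelium Fabp4, skin epidermis Fabp5, and brain glia Fabp7. In rodent testis Fabp9, also called Perf15 or testis lipid binding protein, is a germ cell protein of the sperm head, and Fabp12 is a more recently described relative with germ cell expression in the rat.

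The genes share one layout of 4 coding exons. The third coding exon is 102 bases long in all 6, and it is shown because it is the exon that 1 Fabp9 transcript leaves out. The bases below are the coding strand of the reference (GRCm38 with GENCODE M21 transcripts), 5′ to 3′, from the transcript with the highest level, and capitals mark the 27 positions (26.5%) where all 6 genes have the same base. The exons lie at chr3:10193967-10194068 (minus strand, Fabp9), chr4:130313954-130314055 (plus strand, Fabp3), chr3:10247613-10247714 (minus strand, Fabp12), chr3:10015472-10015573 (plus strand, Fabp5), chr3:10205241-10205342 (minus strand, Fabp4) and chr10:57786265-57786366 (plus strand, Fabp7).
Fabp9: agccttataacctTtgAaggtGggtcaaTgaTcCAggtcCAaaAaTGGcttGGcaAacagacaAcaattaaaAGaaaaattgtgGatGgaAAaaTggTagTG
Fabp3: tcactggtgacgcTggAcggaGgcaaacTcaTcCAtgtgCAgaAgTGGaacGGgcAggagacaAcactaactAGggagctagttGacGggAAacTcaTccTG
Fabp12: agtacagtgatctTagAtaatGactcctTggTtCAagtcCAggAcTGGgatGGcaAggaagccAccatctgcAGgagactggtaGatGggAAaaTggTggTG
Fabp5: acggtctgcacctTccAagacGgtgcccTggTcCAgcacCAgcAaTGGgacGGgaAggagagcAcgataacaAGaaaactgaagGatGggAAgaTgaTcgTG
Fabp4: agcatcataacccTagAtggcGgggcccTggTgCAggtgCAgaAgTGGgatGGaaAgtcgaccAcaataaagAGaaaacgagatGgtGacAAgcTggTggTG
Fabp7: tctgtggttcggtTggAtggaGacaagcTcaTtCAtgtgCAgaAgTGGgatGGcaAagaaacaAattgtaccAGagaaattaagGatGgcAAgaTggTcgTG
Over the whole coding sequence the 15 pairs of genes were 55.3% identical (Fabp12 with Fabp7) to 66.4% identical (Fabp3 with Fabp7), and Fabp9 with Fabp4, its neighbour on the chromosome, was 65.9% identical. The longest run of bases shared by any pair was 20, between Fabp3 and Fabp7. The coding sequence has 396 bases in Fabp9, Fabp12, Fabp4 and Fabp7, 399 in Fabp3 and 405 in Fabp5.

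The expected counts (reads per gene as estimated upstream, not always whole) summed to 20675551 in replicate 2 and 31995377 in replicate 1. In both libraries all 8 spermatid marker genes, all 6 spermatocyte genes, all 6 Leydig cell genes and 7 of 8 Sertoli cell genes reached 1 TPM (a level scaled for transcript length and library depth), which is how the labelled tissue was checked. The check is a weak one, since 54.6% of all protein-coding genes reached that limit. Single markers of other tissues, such as Krt10 of keratinocytes and Crisp1 of epididymis, also did so. The libraries differed widely with base composition. Among the 10% of genes with the lowest transcript GC content, the median log2 ratio of replicate 2 over replicate 1 was -1.62, and among the 10% with the highest it was 3.99. The levels of the Fabp genes are given first as deposited, with no correction for GC content, and the library ratios later beside the GC content of each gene.

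Fabp9 was by far the most abundant Fabp mRNA, Fabp3 and Fabp12 were at intermediate levels, Fabp5 and Fabp4 were low, and Fabp7 was near the limit of counting. Together the 6 genes held 3042 TPM in replicate 2 and 4812 TPM in replicate 1, which is 0.304% and 0.481% of all transcripts. In both libraries 5 of the 6 genes reached 1 TPM, all but Fabp7. Of the 21474 protein-coding genes 54.6% did so. In whole tissue, fewer cells of a type and less RNA per cell cannot be told apart in these levels.

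Fabp9 (ENSMUSG00000027528.8, chr3:10193621-10197283, minus strand) stood at 2599.5 TPM in replicate 2 and at 4601 TPM in replicate 1, from 14950 and 39676 expected counts. The mean was 3600.2 ± 1415 TPM (SD, n = 2 technical libraries). It ranked place 17 among protein-coding genes in replicate 2 and place 13 in replicate 1. It alone made up 85.5% of the summed Fabp level in replicate 2 and 95.6% in replicate 1, a mean of 90.5% ± 7.18 (SD, n = 2 technical libraries). The posterior SD deposited with the estimate was 2.42 counts in replicate 2 and 2.35 in replicate 1, small beside its counts.

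Fabp3 (ENSMUSG00000028773.8, chr4:130308595-130315463, plus strand), the heart-type protein, reached 301.6 TPM in replicate 2 and 63.5 TPM in replicate 1, from 2659 and 876 expected counts. It was high in replicate 2 and lower in replicate 1, and its mean of 183 ± 168 TPM (SD, n = 2 technical libraries) therefore has an SD nearly as large as itself. In replicate 2 it ranked place 580 among protein-coding genes, and in replicate 1 place 2356. A processed pseudogene, Fabp3-ps1, matches 402 bases of the Fabp3 transcript with 3 mismatches (99.3% identity), and it was assigned 16.6 counts in replicate 2 and 9.34 in replicate 1. The posterior SD of the Fabp3 count was 3.03 in replicate 2 and 3.05 in replicate 1. The first exon of Fabp3 also overlaps Zcchc17 on the other strand over 81 bases. That gene was at 12.5 TPM in replicate 2 and 9.51 TPM in replicate 1, and whether the counting used strand is not given in the sources used here.

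Fabp12 (ENSMUSG00000027530.11, chr3:10244209-10301183, minus strand) was the steadiest of the abundant members, with 119.6 TPM in replicate 2 and 138.8 TPM in replicate 1, from 821 and 1539 expected counts. The mean was 129 ± 13.6 TPM (SD, n = 2 technical libraries). It ranked place 1657 among protein-coding genes in replicate 2 and place 1186 in replicate 1.

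Fabp5 (ENSMUSG00000027533.10, chr3:10012548-10016607, plus strand), the epidermal-type protein, stood at 15.3 TPM in replicate 2 and 4.30 TPM in replicate 1, from 178 and 86 expected counts. The mean was 9.81 ± 7.79 TPM (SD, n = 2 technical libraries), and replicate 2 was the higher library. In GENCODE M21, 5 processed pseudogenes match the Fabp5 transcript at 93.6% to 98.3% identity. Of these, Gm6166 was assigned 1.08 counts in replicate 2 and 0 in replicate 1, and the other 4 were at 0 in both libraries.

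Fabp4 (ENSMUSG00000062515.3, chr3:10204088-10208576, minus strand), the adipocyte-type protein, had 5.58 TPM in replicate 2 and 4.24 TPM in replicate 1, from 59 and 71 expected counts. The mean was 4.91 ± 0.948 TPM (SD, n = 2 technical libraries). Fabp7 (ENSMUSG00000019874.7, chr10:57784881-57788450, plus strand), the brain-type protein, had 0.23 TPM in replicate 2 and 0.44 TPM in replicate 1. Those Fabp7 values rest on 2 expected counts in replicate 2 and 6 in replicate 1, too few for a comparison.

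**Figure D1:**
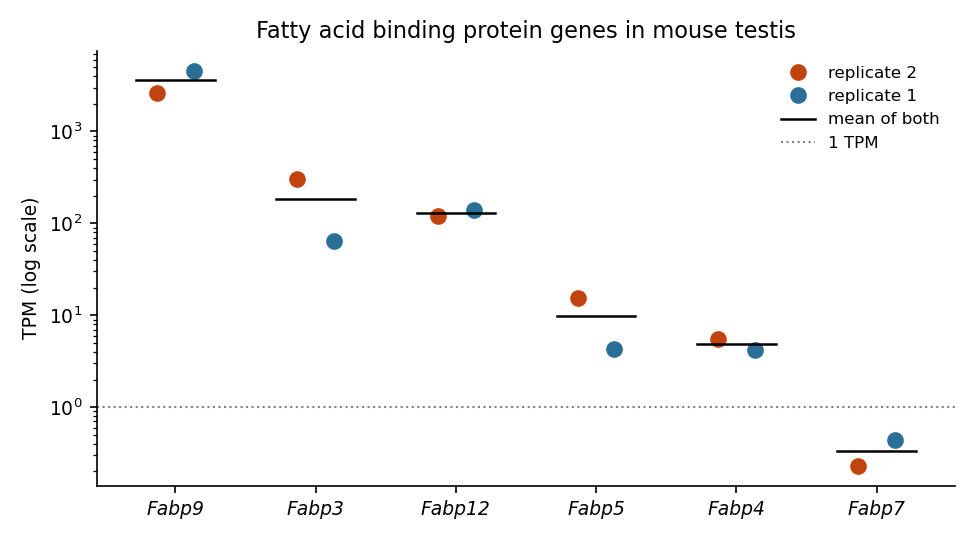
Levels of the 6 Fabp genes in mouse testis, in TPM on a log axis, with 1 point for each library (replicate 2 on the left of each pair) and a bar at the mean of both. Fabp9 lies at 2599.5 and 4601 TPM, Fabp3 and Fabp12 between 63.5 and 301.6 TPM, and Fabp7 is the only member below the dotted line at 1 TPM.

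The order of the levels was Fabp9, Fabp3, Fabp12, Fabp5, Fabp4 and Fabp7 in replicate 2, and Fabp3 and Fabp12 changed places in replicate 1. These ratios between genes are not corrected for GC content, which was 53.9% for Fabp3 and 40.3% to 45.7% for Fabp9, Fabp12, Fabp5 and Fabp4. Fabp9 exceeded Fabp3 8.62-fold in replicate 2 (exact Clopper-Pearson 95% interval 8.27 to 8.99) and 72.4-fold in replicate 1 (67.7 to 77.5). Intervals cover counting error only, since amplified reads were counted and not single molecules. Over Fabp12, the other member with described germ cell expression, Fabp9 stood 21.7-fold in replicate 2 and 33.2-fold in replicate 1.

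Fabp3 was 2.52 times the level of Fabp12 in replicate 2 (2.33 to 2.73) and 0.458 times in replicate 1 (0.421 to 0.498), so the libraries put them in opposite order and they cannot be ranked. Fabp12 exceeded Fabp5 7.81-fold in replicate 2 (6.63 to 9.23) and 32.3-fold in replicate 1 (26.0 to 40.6). Fabp5 exceeded Fabp4 2.74-fold in replicate 2 (2.03 to 3.75), and in replicate 1 their ratio was 1.01 (0.732 to 1.41), which does not separate them. Fabp9 exceeded Fabp4, which lies 6.80 kb away, 466-fold in replicate 2 (361 to 612) and 1085-fold in replicate 1 (861 to 1391).

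Fabp9 and Fabp12 were present in more than 1 transcript form, and Fabp3, Fabp5 and Fabp4 almost wholly in 1. The main Fabp9 transcript, Fabp9-201, is 583 bases long, has 132 codons before the stop, and held 73.2% of the gene's level in replicate 2 and 94.9% in replicate 1. Fabp9-202 starts 61 bases further upstream, ends 3 bases further downstream and has 142 codons before the stop. It held 26.1% in replicate 2 and 4.28% in replicate 1, with 678.8 and 196.8 TPM. Fabp9-201 was thus lower in replicate 2 (1902 TPM) than in replicate 1 (4366 TPM), while Fabp9-202 was 3.45-fold higher in replicate 2.

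The estimate of Fabp9-202 rested on 4349 counts with a posterior SD of 203 in replicate 2 and on 1961 counts with a posterior SD of 147 in replicate 1. Fabp9-202 differs from Fabp9-201 only at its ends, so reads from the rest fit both and were shared out by the estimate. The part of uneven coverage of the transcript ends in the shift was not tested. Its extra 61 bases have a GC content of 50.8%, against 45.6% for the whole of Fabp9-201, and the part of GC content in the shift was not tested. A read-through transcript annotated as Gm37389, which joins Pmp2 to Fabp9, shares 344 bases with Fabp9-202. Gm37389 had 0 counts in replicate 2 and 20.9 in replicate 1. Fabp9-203, which leaves out the third coding exon printed above, has 108 codons and was minor in both libraries, at 0.70% of the gene in replicate 2 and 0.82% in replicate 1. It begins at the same base as Fabp9-201, and the coding starts of the Fabp9 transcripts were not compared.

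Fabp12 is annotated with a proximal start and, 46931 bases further upstream, a distal one. Transcripts from the proximal start held 99.5% of the Fabp12 level in replicate 2 and 98.8% in replicate 1. They were Fabp12-202, at 81.8% in replicate 2 and 77.8% in replicate 1, and Fabp12-204, at 17.7% and 21%. All 4 annotated Fabp12 transcripts have the same coding length. Fabp12-202 and Fabp12-204 are 648 and 779 bases long, so the lengths of their untranslated parts differ. Their coding bases were not compared.

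The low members gave nearly all their level to the spliced coding transcript. Fabp5-201 held 98.2% of Fabp5 in replicate 2 and 94.5% in replicate 1, and the remainder was Fabp5-202, which retains an intron, at 1.81% and 5.47%. Fabp4-201 held 98.3% of Fabp4 in replicate 2 and 98.1% in replicate 1. Fabp3 has 1 annotated transcript. The 18.0% that Fabp7-202 held of Fabp7 in replicate 1, against 0% in replicate 2, rests on 1.19 counts.

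**Figure D2:**
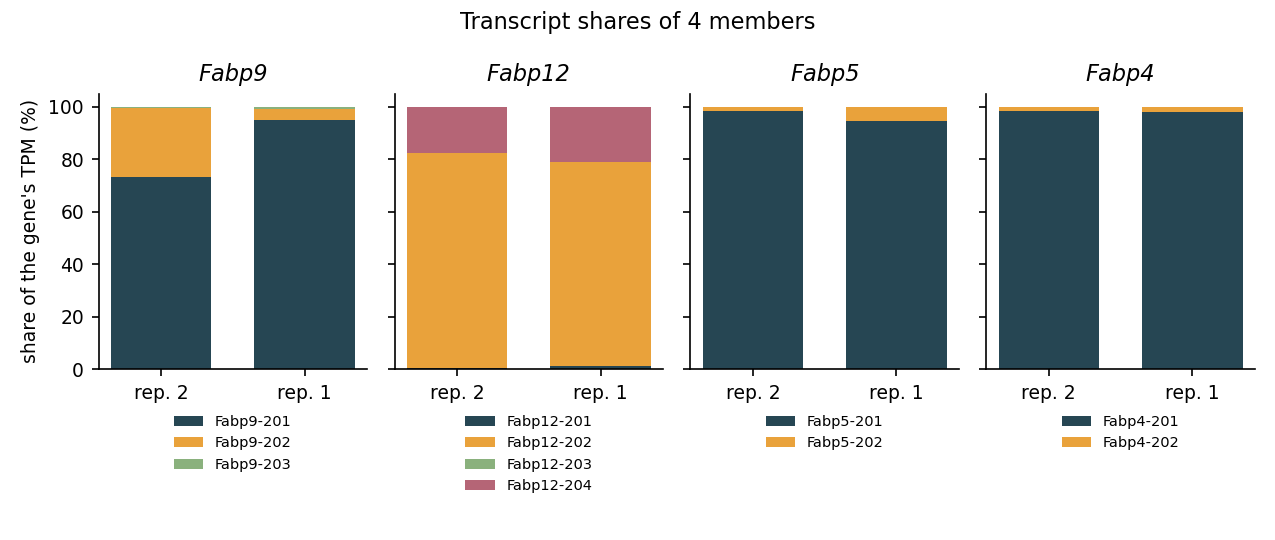
Share of each gene's TPM held by its transcripts, in percent, for Fabp9, Fabp12, Fabp5 and Fabp4, with the bar of replicate 2 left of that of replicate 1. The Fabp9-202 segment is 26.1% in replicate 2 and 4.28% in replicate 1, while the Fabp12 shares differ little between the libraries.

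Fabp5, Fabp9, Fabp4 and Fabp12 lie in one cluster on chromosome 3, 289 kb from the start of Fabp5 to the end of Fabp12, and the levels inside it varied from gene to gene. The cluster holds 12 annotated genes, of which 6 reached 1 TPM in both libraries. Fabp9 stood far above the other 11. Pmp2, which codes for the myelin Fabp and lies beside Fabp9, had 4.93 TPM in replicate 2 and 5.86 TPM in replicate 1. Gm9833, between Fabp5 and Pmp2, had 10.3 TPM in replicate 2 and 21.3 TPM in replicate 1. Fabp12, which lies 35.6 kb beyond Fabp4, was the second highest gene of the cluster in both libraries. Fabp3 and Fabp7 lie on chromosomes 4 and 10.

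**Figure D3:**
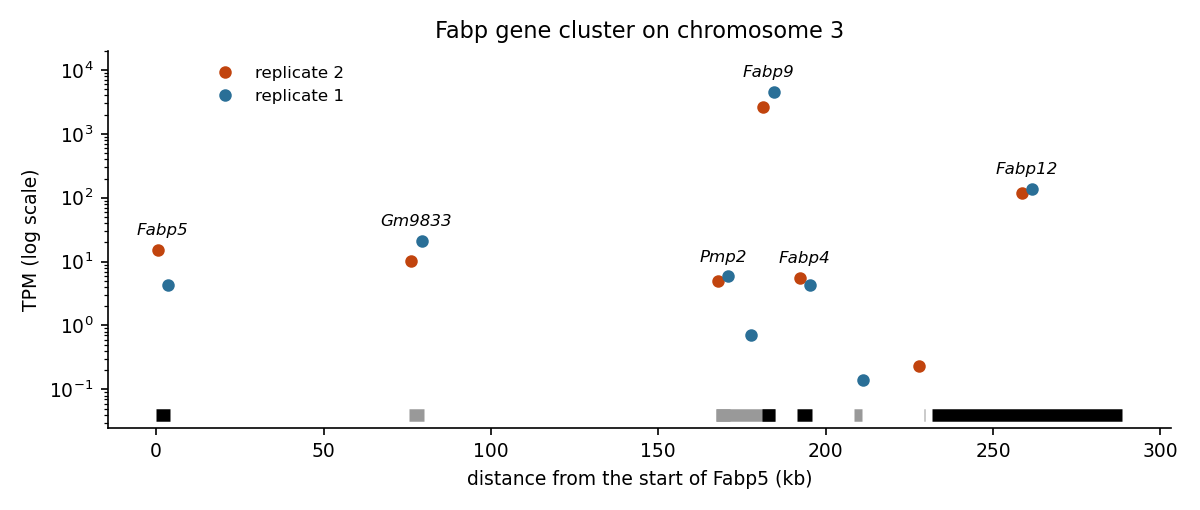
TPM on a log axis of the genes of the chromosome 3 cluster, placed by distance in kb from the start of Fabp5, with bars along the bottom for gene spans (black for Fabp5, Fabp9, Fabp4 and Fabp12, grey for others) and library points set slightly apart, replicate 2 to the left. Only values above 0 are drawn, and Fabp9 stands 466-fold in replicate 2 and 1085-fold in replicate 1 above Fabp4, its neighbour.

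Between the libraries, 2 of the 5 Fabp genes that averaged 10 counts or more were at least 2-fold higher in replicate 2 (Fabp3 and Fabp5), and 1 was at least 2-fold lower (Fabp9). Over all 18589 genes tested in the same way, 32.3% were at least 2-fold higher, 24.3% at least 2-fold lower and 56.6% either, so the counts of Fabp genes are near the background. With plain library totals in place of TMM scaling the median of all genes was 0.289 (log2), against -0.003 with TMM. The share of higher genes among those past the fold was then 69.6%, against 57.1% with TMM, and Fabp9 was no longer past it (-0.78). By deposited TPM the log2 ratio of Fabp9 was -0.82, also inside 2-fold. There is 1 library on each side, so no p-value is given.

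Fabp9 had a log2 ratio of scaled counts of -1.07 (95% counting interval -1.10 to -1.04) and a transcript GC content of 45.6%. The 184 tested genes in its GC bin had a median of -0.72, and less that median the Fabp9 ratio was -0.35, inside 2-fold. Fabp12, with 45.7% GC, had a log2 ratio of -0.57 (-0.69 to -0.45), and less the same median it was 0.15, on the other side of 0. Fabp3, with 53.9% GC, had a log2 ratio of 1.94 (1.83 to 2.05), a 3.83-fold higher scaled count in replicate 2 (4.75-fold by TPM). The 185 genes of its bin had a median of 1.70, which leaves 0.24, inside 2-fold. These 3 abundant genes thus lay within 2-fold of the median of genes of like GC content. So did most tested genes, since 4072 of 18404 were past 2-fold on that scale.

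Fabp5 and Fabp4 stood above nearly all genes of like whole-transcript GC content in this ratio. Fabp5, with 45.6% GC, had a log2 ratio of 1.38 (1.01 to 1.78), which less the median of its bin is 2.10, and 3 of the 184 genes in the bin had a higher ratio. Fabp4, with 40.3% GC, had a log2 ratio of 0.07 (-0.45 to 0.59), and the median of its bin was -1.55. Less that median its ratio was 1.62, and 4 of 184 genes were higher. The counts behind both are small, 178 and 86 for Fabp5 and 59 and 71 for Fabp4 in replicate 2 and replicate 1. The bins use the GC content of the whole transcript. That of the coding sequence alone was higher, 51.1% for Fabp5 and 48.5% for Fabp4. For Fabp9, Fabp12 and Fabp3 it was 44.2%, 46.5% and 51.4%, nearer to the whole transcript. The part of this in the ratios was not tested.

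**Figure D4:**
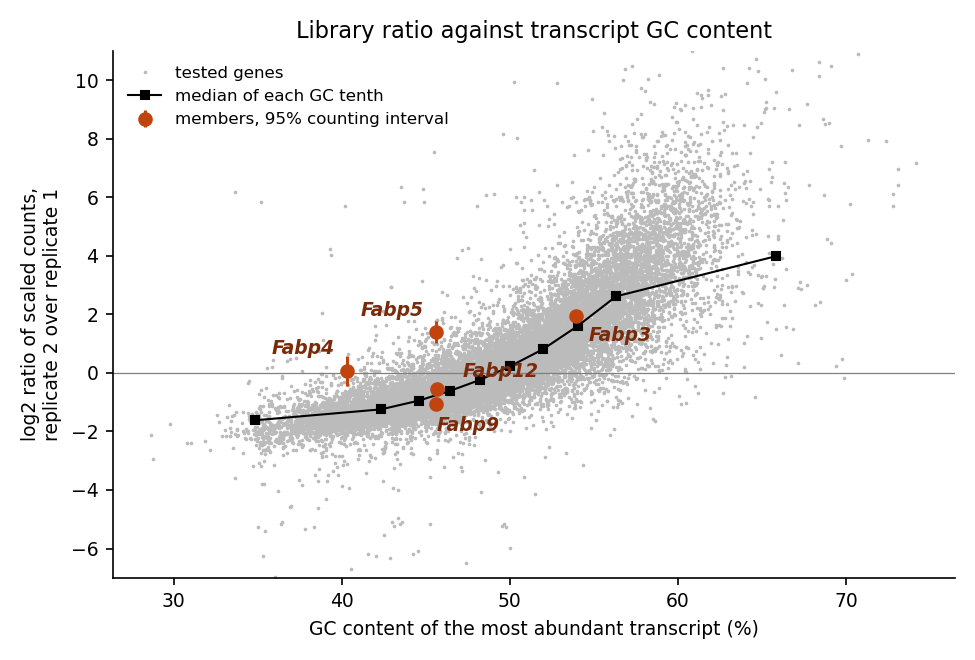
Log2 ratio of scaled counts, replicate 2 over replicate 1, against GC content in percent of each gene's most abundant transcript, for all tested genes inside the axis limits (grey) and for 5 Fabp genes with 95% counting intervals (orange), with the median of each 10% of genes by GC content in black. Fabp9, Fabp12 and Fabp3 lie near the black line, and Fabp5 and Fabp4 lie 2.10 and 1.62 above the median of their GC bins.

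Markers of the cells in which Fabp4 and Fabp5 are known elsewhere are given beside these values. The 6 adipocyte markers summed to 19.9 TPM in replicate 2 and 9.58 TPM in replicate 1. Among them Adipoq, the adipocyte hormone adiponectin, was the 1 marker above 1 TPM in both (9.19 and 7.97 TPM), and Plin1, which coats adipocyte lipid droplets, had 1.69 TPM in replicate 2 and 0 in replicate 1. The 8 endothelial markers summed to 20.8 TPM in replicate 2 and 7.58 TPM in replicate 1, with 4 of 8 above 1 TPM in both libraries. The 8 macrophage markers summed to 93.2 TPM in replicate 2 and 51.4 TPM in replicate 1, also with 4 of 8. Of all protein-coding genes 54.6% reached 1 TPM in both libraries. The macrophage genes Lyz2 (30.8 and 15.9 TPM) and Mrc1 (13.1 and 29.3 TPM) were above Fabp4 in both libraries. Csf1r, Adgre1 and Cd68 were below Fabp4 in both, and C1qa, C1qb and C1qc were above it in replicate 2 and below it in replicate 1. The 3 keratinocyte markers summed to 1.18 TPM in replicate 2 and 1.86 TPM in replicate 1, nearly all from Krt10, while Krt14 was at 0 counts in both.

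Like Fabp5, the adipocyte, endothelial and macrophage sums were higher in replicate 2, and the keratinocyte sum was lower. Single markers went both ways. Of the adipocyte markers 4 of 6 were at least 2-fold higher in replicate 2 and 0 lower. Of the endothelial markers 4 of 8 were higher and 1 lower (Emcn), and of the macrophage markers 5 of 8 higher and 1 lower (Mrc1). Of all tested genes 32.3% were at least 2-fold higher and 24.3% at least 2-fold lower. Less the GC bin medians the median log2 ratio was 0.34 for the adipocyte, 0.31 for the endothelial and 0.57 for the macrophage markers, against 2.03, 1.13 and 2.15 before, and Krt10 was at -2.45. Fabp5 was at 2.10 and Fabp4 at 1.62 on that scale. The part of these cells in the Fabp5 and Fabp4 values was not tested.

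The 6 heart and skeletal muscle markers, where Fabp3 is the usual Fabp, summed to 59.5 TPM in replicate 2 and 5.58 TPM in replicate 1. Of this, 56.8 TPM in replicate 2 and 5.52 TPM in replicate 1 came from the troponin gene Tnni3. The natriuretic peptide gene Nppa was at 0 counts in both libraries, and the muscle creatine kinase gene Ckm had 0.59 TPM in replicate 2 and 0 in replicate 1. Actn2 had 1.57 and 0.03 TPM, Myh6 0.56 and 0.02 TPM, and Myh2 0.04 and 0.01 TPM. All 3 muscle markers with enough counts to compare (Tnni3, Actn2 and Myh6) were at least 2-fold higher in replicate 2, against 32.3% of all tested genes. The median log2 ratio of these markers was 4.04 (1.43 less the GC bin medians). The 6 Leydig cell markers summed to 2193 TPM in replicate 2 and 523 TPM in replicate 1. Most of that difference came from Insl3, at 1630.3 TPM in replicate 2 and 83.2 TPM in replicate 1 with a GC content of 63.6%, and the median log2 ratio of the list was 0.02. The 5 peritubular myoid markers summed to 95.7 and 17.6 TPM. All 5 were at least 2-fold higher in replicate 2, against 32.3% of all tested genes. Their median log2 ratio was 2.12 (1.07 less the GC bin medians). Fabp3, also higher in replicate 2, was at 1.94 (0.24 less its GC bin median). The part of these cells in the Fabp3 value was not tested.

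Germ cell markers are given beside Fabp9, which is known from germ cells. The 6 spermatocyte markers summed to 5754 TPM in replicate 2 and 5912 TPM in replicate 1. Of these, 3 were at least 2-fold lower in replicate 2 and 0 higher, against 24.3% and 32.3% of all tested genes, with a median log2 ratio of -1.28 that was 0.08 less the GC bin medians. The 8 spermatid markers summed to 47481 TPM in replicate 2 and 6666 TPM in replicate 1. Most of that difference came from Tnp1, Tnp2, Prm1 and Prm2, while Acrv1, Spaca1 and Zpbp2 were lower in replicate 2. Of the 8, 4 were at least 2-fold higher in replicate 2 and 1 lower, with a median of 1.22 (0.26 less the GC bin medians). Less those medians single spermatid markers ran from -1.38 (Spaca1) to 4.24 (Prm2). Fabp9 was at -1.07 (-0.35 less its GC bin median), and the part of these cells in it was not tested. Sertoli cell markers summed to 1208 TPM in replicate 2 and 997 TPM in replicate 1. Of the other lists, the 4 Schwann cell markers summed to 13.9 and 10.4 TPM. The 4 epididymis markers summed to 19.7 TPM in replicate 2 and 54.0 TPM in replicate 1, nearly all from Crisp1, and Lcn5 and Lcn8 were at 0.

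The protein-coding genes nearest to each member in level over both libraries were found by the distance of log2(TPM + 1). Over 2 libraries, this measure says only that the levels were alike. For Fabp9 they were the sperm genes Meig1, at 3430 TPM in replicate 2 and 5574 TPM in replicate 1, Crisp2, at 2887 and 6903 TPM, and Smcp, at 3821 and 3836 TPM. Their distances of 0.486 to 0.614 were the widest found for a member, since few genes are as abundant. Those nearest to Fabp3 were Rbm4b, Tbata and Ap1m1, to Fabp12 Rimklb, Snu13 and Agfg1, to Fabp5 Pygo2, Cltb and Trmo, and to Fabp4 Tnrc6b, Arsb and Bcl11a, at distances of 0.0085 to 0.117. The 3 nearest to Fabp5 have a transcript GC content of 51.7% to 54.8%, against 45.6% for Fabp5 itself.

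The other genes of the intracellular lipid-binding family were low. Of 9 genes, Pmp2 was the 1 that reached 1 TPM in both libraries, against 54.6% of protein-coding genes. Among the 4 with enough counts to compare, 2 were at least 2-fold higher in replicate 2 and 1 lower, against 32.3% and 24.3% of all tested genes, with a median log2 ratio of 1.38 (0.49 less the GC bin medians). The retinoid carrier gene Crabp1, with 57.4% GC, had 10.3 TPM in replicate 2 and 0.60 TPM in replicate 1, a log2 ratio of 3.72 that was 0.42 less its GC bin median. The liver-type Fabp1 was at least 2-fold lower, at 0.98 TPM in replicate 2 and 2.02 TPM in replicate 1, from 5 and 16 counts, with a log2 ratio of -1.25 whose counting interval (-3.14 to 0.17) spans 0, and -0.53 less its GC bin median. Intestinal Fabp2 had 0.09 TPM in replicate 2 and 1.01 TPM in replicate 1, Crabp2 0.10 and 0 TPM, Rbp2 0.44 and 0.11 TPM, and Rbp7 0 and 0.72 TPM. Ileal Fabp6 had 0 TPM in both libraries.

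Genes that act beside Fabps in fatty acid handling were present to a varying extent. Of 16 genes for uptake and activation, 12 reached 1 TPM in both libraries, against 54.6% of protein-coding genes. The most abundant was Dbil5, a testis relative of the acyl-CoA binding protein, at 2802 TPM in replicate 2 and 1305 TPM in replicate 1. Next came the acyl-CoA synthetase genes Acsl1, at 659 TPM in replicate 2 and 540 TPM in replicate 1, and Acsbg2, at 176 and 32.99 TPM. Of the 15 tested, 5 were at least 2-fold higher in replicate 2 and 3 lower, against 32.3% and 24.3% of all tested genes. Their median log2 ratio was 0.34 (-0.004 less the GC bin medians).

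Of 17 genes of mitochondrial fatty acid oxidation, 16 reached 1 TPM in both libraries, against 54.6% of protein-coding genes. Of the 17, 6 were at least 2-fold higher in replicate 2 and 0 lower, against 32.3% and 24.3% of all tested genes. Their median log2 ratio was 0.52 (0.14 less the GC bin medians). The subunits of the trifunctional protein led them, with Hadhb at 97.5 TPM in replicate 2 and 261 TPM in replicate 1 and Hadha at 156 and 107 TPM. The carnitine palmitoyltransferase gene Cpt1b was at 201 TPM in replicate 2 and 16.6 TPM in replicate 1. Of 11 genes of lipid droplets and lipolysis, 9 reached 1 TPM in both libraries, against 54.6% of protein-coding genes. The highest were the lipase cofactor gene Abhd5 (235 and 298 TPM), the hormone-sensitive lipase gene Lipe (214 and 253 TPM) and the triglyceride lipase gene Pnpla2 (188 and 11.2 TPM). In that list 7 were at least 2-fold higher in replicate 2 and 1 lower, against 32.3% and 24.3% of all tested genes. Its median log2 ratio was 1.84 (0.63 less the GC bin medians).

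Of 6 genes of long chain polyunsaturated fatty acid synthesis, 4 reached 1 TPM in both libraries, against 54.6% of protein-coding genes. The elongase genes were Elovl2, at 140 TPM in replicate 2 and 178 TPM in replicate 1, and Elovl5, at 47.3 and 76.4 TPM, and the desaturase gene Fads2 was at 86.1 and 8.24 TPM. In that list 2 were at least 2-fold higher in replicate 2 and 1 lower, against 32.3% and 24.3% of all tested genes. Its median log2 ratio was -0.36, which turns to 0.24 less the GC bin medians. The PPAR and RXR receptors, which Fabps can supply with ligand in other tissues, were low. Of 6, Pparg was the 1 above 1 TPM in both libraries (2.22 TPM in replicate 2 and 1.63 TPM in replicate 1), against 54.6% of protein-coding genes. Rxra had 24.6 and 0.89 TPM and Rxrb 18.9 and 0.42 TPM. In that list 4 were at least 2-fold higher in replicate 2 and 0 lower, against the same shares of all tested genes. Its median log2 ratio was 3.52 (0.24 less the GC bin medians). The 5 tested Fabp genes had a median of 0.07 (0.24 less the GC bin medians), and all tested genes -0.003.

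**Figure D5:**
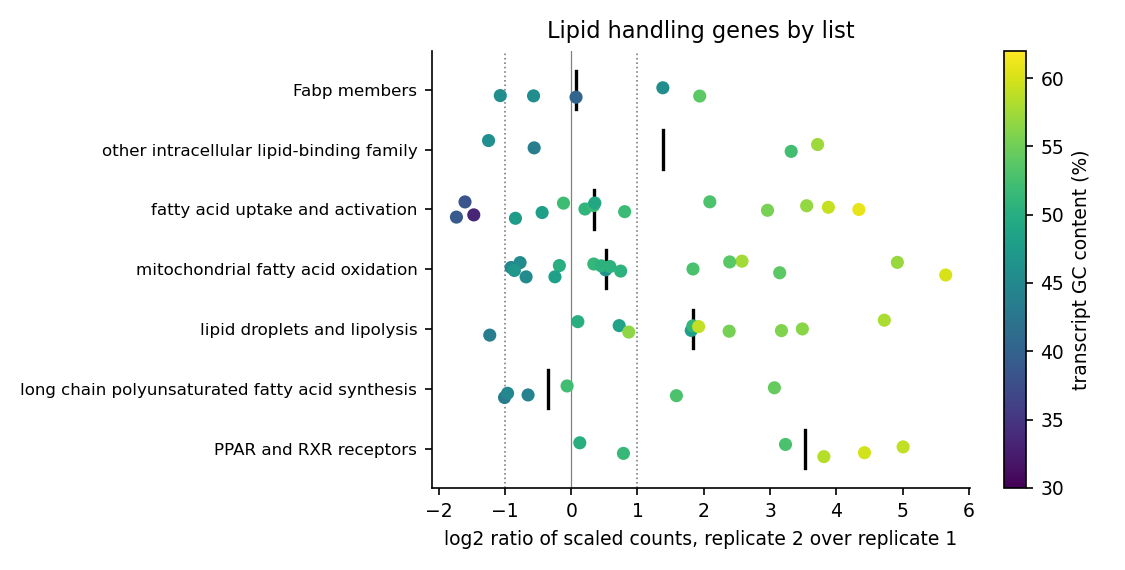
Log2 ratio of scaled counts, replicate 2 over replicate 1, of the tested genes of the Fabp set and of 6 lists of lipid genes, with points coloured by transcript GC content in percent, a bar at each list's median and dotted lines at 2-fold. Genes of high GC content lie mostly to the right, and the 5 Fabp genes spread from -1.07 to 1.94.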

How the data were processed

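PolyA mRNA of 1 testis sample was measured in 2 technical replicate libraries. Per the deposited notes, both were quantified separately from transcriptome alignments on mm10 with annotation M4, with aligner and program not given in the sources used here. For each gene and transcript the authors deposited expected counts (estimated reads, which need not be whole), TPM and FPKM (both scaled for effective length and depth, TPM also to a fixed sum) and, for transcripts, the percent of the gene's level. The authors also deposited a posterior mean TPM and a posterior SD of each count. Such estimates share out a read among the near-identical genes it could come from.

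The members and lists were chosen with earlier results of these data known. Names, positions and transcripts came from GENCODE M21 (GRCm38) by identifier without version (42462 of 43346 genes), and all 14 Fabp transcripts had the same length there as in the deposited tables. Levels are deposited TPM, with a detection limit of 1 TPM that both libraries had to reach. The rounded expected counts were scaled with edgeR 4.0.16 by TMM (factors 1.11 for replicate 2 and 0.904 for replicate 1). The log2 ratio has replicate 2 on top and adds 0.5 to every count. Genes averaging 10 counts or more were compared, and a ratio of 2 or more in either direction, with no p-value, was the call. Corrected ratios subtract the median of the same one of 100 GC bins of equal gene number (GC known for 99.0% of tested genes). Intervals are exact Clopper-Pearson at 95%. A count of 0 allows up to 3 counts, or 0.145 CPM in replicate 2 and 0.0938 CPM in replicate 1. Copies were searched with BLAST 2.17.0 on M21 transcripts. The ratio step was tested on simulated counts that held no difference by GC content. That test therefore does not cover the GC difference between these libraries. Alternatives were plain totals, DESeq2 1.42.0 size factors, other detection, count and fold limits, FPKM, posterior means, TPM without mitochondrial genes, and each library alone. Named genes are the 6 members, their transcripts at 5% or more of the gene, the other lipid-binding genes (1 of which is not reported here), the genes of the chromosome 3 cluster, the 3 nearest in level to each detected member, and the 3 highest of each lipid list. Marker genes, Fabp9-203, Fabp4-202 and the near-identical or overlapping genes are named beside a result and were chosen after their values were seen. Other tools were biopython 1.88, matplotlib 3.10.9, scipy 1.17.1, pandas 2.3.3 and numpy 2.4.6 on Python 3.11.15, and R 4.3.3.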

Additional observations from a re-analysis of the deposited data

How the results depend on the processing

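No paired analysis was possible because there is 1 group. The 5 members detected at 1 TPM were 3 at a limit of 5 TPM, and 5 under the other settings, with replicate 2 or replicate 1 alone included. With mitochondrial genes and their chromosome 1 copies left out (5.29% of TPM in replicate 2 and 20.5% in replicate 1) the mean of Fabp12 was 150 TPM in place of 129 TPM. With the posterior mean the level of Fabp7 was 0.495 TPM in place of 0.335 TPM. The share of Fabp9 among the members was 87.0% by expected counts and 90.5% by FPKM or the posterior mean. Leaving out 1 library gave a share of 85.5% to 95.6% and mean levels of 2599.5 to 4601 TPM for Fabp9, 63.5 to 301.6 TPM for Fabp3, 119.6 to 138.8 TPM for Fabp12, 4.30 to 15.3 TPM for Fabp5, 4.24 to 5.58 TPM for Fabp4 and 0.23 to 0.44 TPM for Fabp7. At 4-fold 0 of the 5 compared members were past the limit, against 3 at 2-fold. Over all genes 10528 of 18589 were past 2-fold and 4377 at 4-fold. With no filter on low counts 15860 of 25972 were past 2-fold, and less the GC bin medians 4072 of 18404. Less the GC bin medians the members past 2-fold were Fabp5 and Fabp4, both higher in replicate 2, in place of Fabp3, Fabp5 and Fabp9. On that scale 2292 of all 18404 genes were at least 2-fold higher in replicate 2 and 1780 lower. Of the 25 alternative log2 ratios of the members, 13 stayed within the counting interval and 12 moved. Fabp12 changed sign, to 0.15, once the GC bin median was subtracted. The causes of these changes were not tested. The counts of Fabp5, Fabp4 and Fabp7 limit what their ratios can show, and with 1 animal no value has a biological replicate.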
